A study of Mus musculus with 6 samples.

Results

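Steroid hormone receptors are nuclear receptors: proteins that bind a steroid, enter or stay in the nucleus and switch genes on or off at short DNA elements. The glucocorticoid and mineralocorticoid receptors answer to adrenal steroids and, with the progesterone receptor, bind much the same DNA element as the androgen receptor, so that many of their target genes are shared. The oestrogen receptors bind a different element. In the prostate, oestrogen receptor alpha is best known from the stroma and oestrogen receptor beta from the epithelium. Their RNA was measured here in mouse prostates with and without castration, which removes the main source of androgens.

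The 5 genes are Nr3c1 (glucocorticoid receptor), Nr3c2 (mineralocorticoid receptor), Esr1 and Esr2 (oestrogen receptors alpha and beta) and Pgr (progesterone receptor). They were taken by symbol from the 24421 genes in the deposited tables, and 5 of 5 were found and tested. RNA sequencing of total RNA covered 6 prostate samples, 2 from intact mice and 4 whose castration status the labels give as Cx, read here as castrated. The 2 groups share a genotype with the PB-Cre4 transgene, in which a probasin promoter drives Cre recombinase in prostate epithelium, and 2 floxed copies of a gene that is not reported here. The recombination is thus directed at epithelium, while stromal and immune cells keep the floxed copies. The labels do not give the animals' age, the time since castration or whether each sample is 1 mouse, and a p-value here speaks only for the spread among these 6 samples, which could be technical.

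Recovered totals ranged from 43679297 to 59170793 reads per sample. Values are rescaled CPM, reads per 1000000 reads in genes divided by a size factor per sample. On log2 values castrated sample 4 correlated with castrated samples 1, 2 and 3 at 0.941, 0.970 and 0.954. Castrated samples 1 and 3 correlated at 0.988, 1 and 2 at 0.969 and 2 and 3 at 0.974. Castrated sample 4 was thus apart from 1 and 3 but as close to 2 as 1 was. With intact samples 1 and 2 it correlated at 0.9505 and 0.9519, higher than with castrated sample 1. On the first principal component, the main axis of variation among the samples, it was at -5.47. The intact samples were at -46.05 and -42.4 there, and castrated samples 1 to 3 between 20.6 and 37.5. On that axis, the castrated samples that remain without it lie farther from the intact ones. Results are also given without castrated sample 4 where that changes them, which does not mark it as faulty. The epithelial keratin and adhesion genes of the luminal marker list summed to between 7050 and 9553 rescaled CPM in the 6 samples, and the seminal vesicle genes to at most 0.161, with 4 of 7 at 0 throughout.

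**Figure D1:**
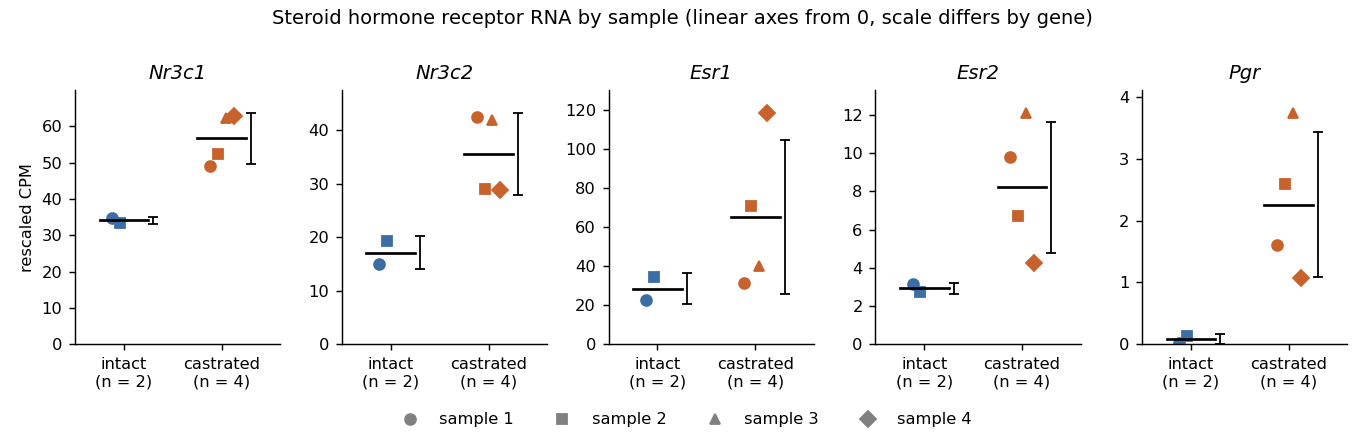
Each panel plots 1 receptor gene, with rescaled CPM on a linear axis from 0 and each marker a sample (symbols give the sample number). Horizontal bars are group means and the lines beside them 1 SD. For Nr3c1, Nr3c2, Esr2 and Pgr each castrated sample lies above both intact samples, while the groups overlap for Esr1.

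All 5 receptor RNAs had a higher mean in castrated than in intact prostates, from 1.66 times for Nr3c1 to 27.7 times for Pgr. The Pgr ratio rests on few intact reads: it was 16.2 without intact sample 1 and 96.6 without intact sample 2. For 4 of the 5 each castrated sample lay above both intact samples, which held for 13.4% of all tested genes. None of the 5 passed the threshold of 0.05 in limma after Benjamini-Hochberg adjustment over 13898 genes, where 1.97% of genes were called in either direction and 0.698% were called higher. At an unadjusted p under 0.05 in limma, 4 were higher and 0 lower, against 7.84% of tested genes higher and 8.06% lower at that level. On the recovered reads edgeR called 0 of the 5 (0.389% of genes called higher, 1.07% lower) and DESeq2 called 4 higher (4.76% higher, 4.54% lower), the exception being Esr1. The median log2 difference of the 5 was 1.02, beside 0.00 over all tested genes. Pgr passed the filter on low values through the castrated samples alone, so its place in this median is partly fixed. The same holds for its place in each count of 4 given here, where the others are Nr3c1, Nr3c2 and Esr2. Without castrated sample 4, limma called 4 of the 5 higher, against 3.38% of genes called higher in that fit. With any other castrated sample left out, none of the 5 passed.

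The glucocorticoid receptor gene Nr3c1 (chromosome 18) was the most evenly expressed of the 5 within each group. Intact samples 1 and 2 had 34.9 and 33.3 rescaled CPM, and castrated samples 1 to 4 had 49.1, 52.5, 62.3 and 62.9. The groups did not overlap, and the lowest castrated sample was well above both intact ones. The means were 34.1 ± 1.09 (SD, n = 2) and 56.7 ± 6.96 (n = 4). The log2 difference on log2(rescaled CPM + 0.5) was 0.72 (SE 0.13), with a 95% interval of 0.40 to 1.03 and a limma adjusted p of 0.0555. Leaving out castrated sample 4 gave 0.66, with an adjusted p of 0.0347.

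The mineralocorticoid receptor gene Nr3c2 (chromosome 8, 76899442 to 77245012, plus strand), whose protein is activated by aldosterone and can also bind glucocorticoids, was at 14.9 and 19.4 in the intact samples. In castrated samples 1 to 4 it was at 42.4, 29.1, 41.9 and 28.8. Castrated samples 1 and 3 were thus high and 2 and 4 lower, with no overlap with the intact samples. The means were 17.1 ± 3.15 and 35.6 ± 7.61, and the log2 difference was 1.02 (SE 0.22; interval 0.49 to 1.54; limma adjusted p = 0.0814). The fit without castrated sample 4 gave 1.11, with an adjusted p of 0.0336. An antisense gene, Gm10649, covers 3.81% of the exon bases of Nr3c2, and the sources used here do not say whether reads were counted by strand.

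Esr1, which encodes oestrogen receptor alpha (chromosome 10, 4611593 to 5005614, plus strand), had the widest spread among castrated samples. It was at 22.9 and 34.3 in the intact samples, and at 31.3, 71.1, 40.2 and 118 in castrated samples 1 to 4. Castrated sample 1 lay within the intact range, and castrated sample 4 was 3.79 times as high as castrated sample 1. The means were 28.6 ± 8.09 and 65.2 ± 39.4. The log2 difference was 1.01 (SE 0.52), and its interval of -0.24 to 2.26 included 0 (limma adjusted p = 0.416). Without castrated sample 4 it was 0.66, with an adjusted p of 0.321.

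Esr2, which encodes oestrogen receptor beta (chromosome 12, 76120419 to 76177259, minus strand), ordered the castrated samples in nearly the reverse way. It was at 3.15 and 2.74 in the intact samples, and at 9.79, 6.73, 12.1 and 4.25 in castrated samples 1 to 4. The groups did not overlap, and castrated sample 4, the highest for Esr1, was the lowest for Esr2. The means were 2.95 ± 0.292 and 8.22 ± 3.44, and the log2 difference was 1.25 (SE 0.39; interval 0.31 to 2.18; limma adjusted p = 0.180). With that sample left out it was 1.51, with an adjusted p of 0.0278.

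Pgr, which encodes the progesterone receptor (chromosome 9, 8899833 to 8968611, plus strand) and is a classical oestrogen-induced gene in the female tract, was close to undetected in intact prostates. It had 1 and 8 reads in intact samples 1 and 2, and 85, 145, 213 and 67 reads in castrated samples 1 to 4. As rescaled CPM, the intact values were 0.0233 and 0.140, and the castrated values 1.61, 2.60, 3.73 and 1.08. Pgr passed the filter on low values through the castrated samples alone, so the difference between the groups is partly fixed by that filter. The ratio of summed reads, scaled by read totals and size factors, was 24.9, with an exact 95% binomial interval of 13.0 to 54.8 that covers counting error only. The means were 0.0814 ± 0.0822 and 2.26 ± 1.17, and the log2 difference was 2.15 (SE 0.43; interval 1.13 to 3.18; limma adjusted p = 0.0669). That value is held down by the pseudocount of 0.5: it was 3.64 with a pseudocount of 0.1 (adjusted p = 0.0404) and 1.52 with a pseudocount of 1 (adjusted p = 0.0919), and edgeR, fitted to the reads, gave 4.67 (adjusted p = 0.0684). Without castrated sample 4 it was 2.38, with an adjusted p of 0.0185. The adjusted p did not fall under 0.05 with any other castrated sample left out.

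**Figure D2:**
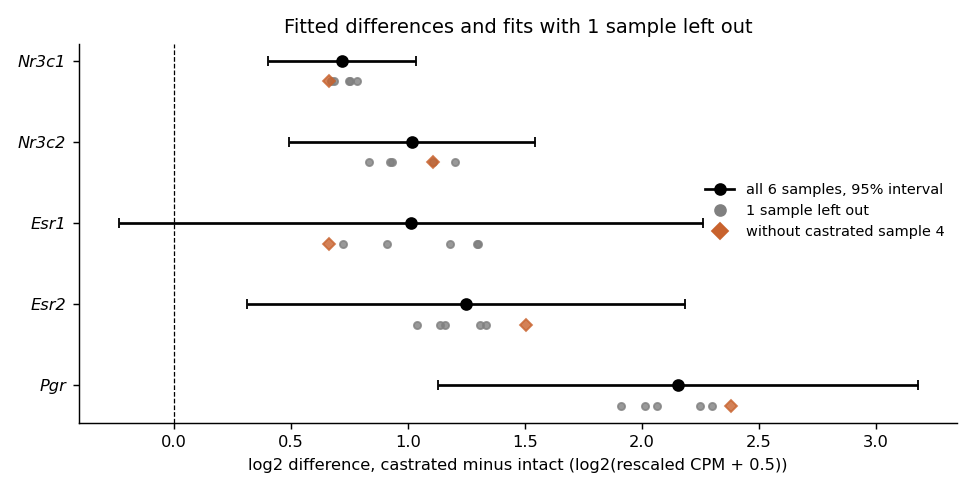
The x axis is the log2 difference between castrated and intact samples, black points are the fits to all 6 samples with 95% intervals, grey points leave out 1 sample and orange diamonds leave out castrated sample 4. All points lie above 0, and the interval of Esr1, from -0.24 to 2.26, is the one that includes 0.

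An exact two-sided permutation test over the 15 ways to assign 2 of 6 samples to the intact group cannot go below p = 0.133 in this design. It gave 0.133 for Nr3c1, Nr3c2, Esr2 and Pgr and 0.267 for Esr1, or 0.167 and 0.267 adjusted over the 5 genes. In the 18 alternative fits, leaving out each sample among them, the log2 difference was positive in 89 of 89 values for these genes. These fits reuse the same samples. For Nr3c1, Nr3c2, Esr2 and Pgr, whose groups did not overlap, the sign could hardly change, so this is not separate support. No exon base of Nr3c1, Esr1, Esr2 or Pgr is shared with another annotated gene.

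The 2 genes with the largest log2 differences, Pgr and Esr2, have start sites with no annotated exon upstream, and the 250 bases before each start are shown so that the response elements can be looked for by eye. The sequences are from RefSeq (GRCm38.p6), at chr9:8899583-8899832 on the plus strand for Pgr and chr12:76177260-76177509 on the minus strand for Esr2. Capitals mark each match to GGTCA (an arm of the oestrogen response element), GGGCGG (the GC box), CCAAT (the CCAAT box) or TATAAA (the TATA box), on either strand.
Pgr: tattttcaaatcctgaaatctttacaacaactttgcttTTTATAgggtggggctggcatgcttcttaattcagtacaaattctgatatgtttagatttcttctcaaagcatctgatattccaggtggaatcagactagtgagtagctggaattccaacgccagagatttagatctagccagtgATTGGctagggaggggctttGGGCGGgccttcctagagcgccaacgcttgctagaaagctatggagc
Esr2: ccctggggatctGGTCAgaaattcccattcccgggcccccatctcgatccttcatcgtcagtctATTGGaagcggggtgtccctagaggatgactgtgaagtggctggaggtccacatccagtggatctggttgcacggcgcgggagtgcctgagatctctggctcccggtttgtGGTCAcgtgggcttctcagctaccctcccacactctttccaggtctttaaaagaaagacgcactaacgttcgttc
The Esr2 window holds 2 matches to the oestrogen arm, starting 238 and 75 bases before the start site, and 1 to the CCAAT box. The Pgr window holds 1 match each to the GC, CCAAT and TATA boxes. Of 32851 mouse promoter windows of the same length, 35.2% hold the oestrogen arm, 32.7% the GC box, 33.8% the CCAAT box and 12.4% the TATA box. Neither window holds the element shared by the androgen and glucocorticoid receptors (AGAACA and, after 3 bases of any kind, its reverse complement, in 3 of the 32851 windows), its arm AGAACA (16.1%) or the full oestrogen element (GGTCA and its reverse complement with 3 bases between them, in 21 windows). No such match was searched for outside these bases.

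Levels of different genes were compared per kb of annotated exon, since a long transcript gives more reads. The length was that of all exons of all annotated transcripts of a gene, 13.66 kb for Esr1 and 3.368 kb for Esr2. Where the transcripts in use are shorter, the level per kb is understated. The order and the shares of the sum depend on these lengths. In intact prostates the order by mean was Nr3c1 at 4.44 ± 0.142 rescaled CPM per kb (n = 2), Nr3c2 at 2.65 ± 0.487, Esr1 at 2.10 ± 0.592, Esr2 at 0.874 ± 0.0868 and Pgr at 0.00953 ± 0.00961. The ranges of Nr3c2 and Esr1 overlapped, and the other neighbours in that order were separate. In castrated prostates the order by mean was the same: 7.38 ± 0.905 (n = 4), 5.49 ± 1.18, 4.78 ± 2.88, 2.44 ± 1.02 and 0.264 ± 0.137. Of these neighbours, Esr2 and Pgr alone had ranges that did not overlap. The order within a sample varied: Nr3c2 was above Nr3c1 in castrated sample 1, and Esr1 was the highest of the 5 in castrated sample 4. Summed over the 5 genes, the level was 9.46 and 10.7 per kb in the intact samples and 18.3, 18.8, 21.5 and 22.7 in the castrated samples.

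**Figure D3:**
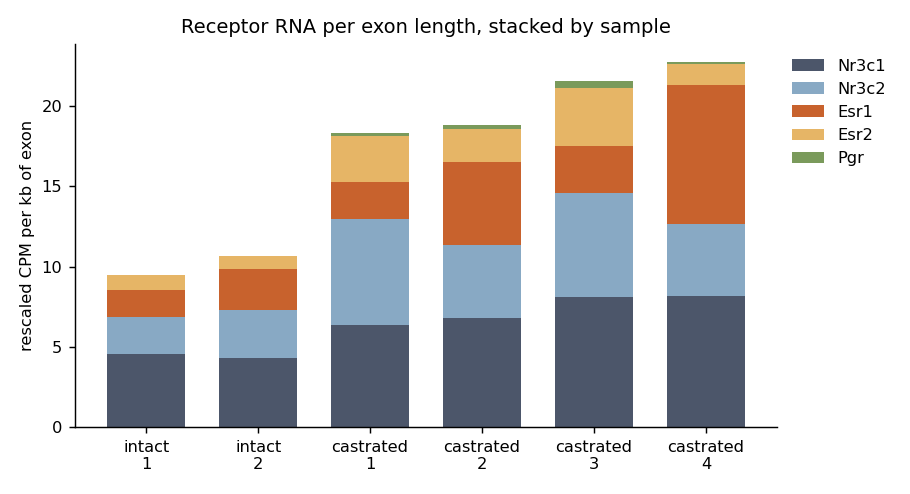
Bars stack the 5 receptors in rescaled CPM per kb of exon for each sample, on a linear axis from 0. The stack is 9.46 and 10.7 high in the intact samples and between 18.3 and 22.7 in the castrated ones, with Esr1 the widest block in castrated sample 4.

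Esr1 made up between 12.5% and 38.2% of this sum in castrated samples, a range that held the 17.7% and 23.6% of the intact samples. Nr3c1 made up 48.0% and 40.6% of it in intact samples and between 34.9% and 37.6% in castrated samples. Whether related receptors differed unequally was asked with log2 ratios within a sample, for 3 pairs. The ratio of Nr3c1 to Nr3c2 was 0.98 ± 0.30 in intact and 0.68 ± 0.39 in castrated samples, a difference of -0.30 (exact permutation p = 0.400). For Esr1 to Esr2 the difference was -0.24 (exact permutation p = 0.933), with a ratio of 1.63 to 4.65 in castrated samples and of 2.68 and 3.43 in intact samples. For Esr1 to Pgr it was -1.14 (exact permutation p = 0.400). Adjusted over the 3 pairs these p-values were 0.600, 0.933 and 0.600. Each difference was smaller than 1 SD of the castrated samples.

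Among 11117 or 11118 genes with a mean of at least 5 rescaled CPM, those with log2 values most like a receptor's over the 6 samples were named as a description, with Pearson's r. They were Shank2 (0.998), Gpr137b-ps (0.998) and Diap2 (0.996) for Nr3c1, and Pik3cg (0.998), Plscr4 (0.998) and Cnst (0.995) for Nr3c2. For Esr1 they were Gabpa (0.996), Arhgef6 (0.994) and Tspan2 (0.992), and for Esr2 Ldah (0.997), Vps26b (0.995) and Greb1l (0.994). For Pgr they were Itpripl2 (0.990), Slc24a3 (0.989) and Fam199x (0.988). Values of r above 0.9 were common with 6 samples in 2 groups, at between 2.07% and 3.81% of genes for each receptor. Slc24a3, a sodium, potassium and calcium exchanger, was at 2.43 and 2.44 in the intact and 10.4, 14.8, 15.3 and 7.20 in the castrated prostates. Since these genes were picked for following a receptor over the same 6 samples, a difference between the groups was built into the choice.

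The genes around the receptors were read from 8 lists of cofactors, enzymes and known targets. The lists hold 107 tested genes apart from the 5 receptors, of which limma called 2 higher and 7 lower in castrated samples (0.698% and 1.27% of all tested genes). The 7 that fell are known targets of the glucocorticoid, mineralocorticoid or progesterone receptor, and the 2 that rose are subunits of the aldosterone-regulated epithelial sodium channel. With 1 sample left out, the number called ranged from 1 to 19: it was 1 with either intact sample left out, 3 or 4 with castrated sample 1, 2 or 3 left out, and 19 with castrated sample 4 left out. Over all tested genes, the numbers called without castrated samples 1, 2 and 3 were 78, 83 and 46. Without castrated sample 4 it was 1052 of 13786, so the 19 are to be read beside a larger share of all genes. Many of the listed targets are also androgen targets, and the lists were chosen with earlier results of these data known.

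**Figure D4:**
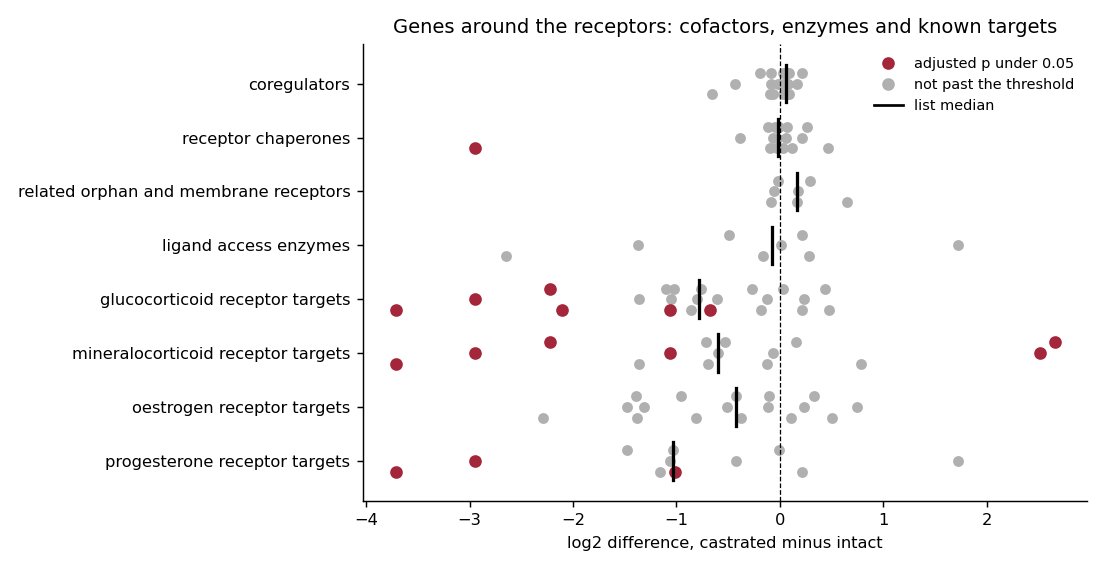
Each point is a tested gene of 1 list, placed by its log2 difference between castrated and intact samples, with vertical bars at list medians and red points past the limma threshold. The glucocorticoid, mineralocorticoid and progesterone receptor targets have medians of -0.78, -0.60 and -1.03, while coregulators and chaperones lie near 0.

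Of 22 tested glucocorticoid receptor targets, 0 were called higher and 6 lower (0.698% and 1.27% of all tested genes). Their median log2 difference was -0.78. In 12 of the 22 each castrated sample lay below both intact samples, which held for 13.2% of all tested genes. Fkbp5, a co-chaperone that lowers the hormone affinity of steroid receptors (chromosome 17, 28399094 to 28517527), had levels of 254 and 251 in intact and of 34.0, 29.7, 32.0 and 34.1 in castrated prostates. It fell by 2.95 on the log2 scale (SE 0.09; limma adjusted p = 0.000141). Zbtb16, a zinc finger repressor (chromosome 9, 48654297 to 48836222), fell by 3.71 (SE 0.24; adjusted p = 0.00303), from 14.8 and 17.98 to between 0.564 and 1.00. Zbtb16 passed the filter on low values through the intact samples alone, so its difference is partly fixed by that filter, and it was not tested with either intact sample left out. The list counts without Zbtb16 were 5 lower for the glucocorticoid, 3 lower for the mineralocorticoid and 2 lower for the progesterone receptor targets. Mt2, a metallothionein with a close relative in Mt1 that may share reads (chromosome 8, 94172664 to 94173568), fell by 2.10 (SE 0.20; adjusted p = 0.00927), a call lost without intact sample 1 or 2 (adjusted p = 0.117 and 0.0813).

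The other 3 called glucocorticoid targets, named after their values were seen, were Sgk1, Nfkbia and Tsc22d3. Sgk1, a kinase that keeps the epithelial sodium channel at the cell surface (chromosome 10, 21882184 to 21999903), was at 380 and 443 in the intact and 61.1, 123, 65.5 and 119 in the castrated prostates. It fell by 2.22 (SE 0.33; adjusted p = 0.0298). Nfkbia, an inhibitor of NF-kappaB, fell by 0.68 (adjusted p = 0.0275), and Tsc22d3, the glucocorticoid-induced leucine zipper, by 1.06 (adjusted p = 0.0415). With 1 sample left out, the call of Sgk1 was kept in 2 of 6 fits and those of Nfkbia and Tsc22d3 in 1 of 6, without castrated sample 4. Per1, a clock gene with a glucocorticoid response element, had a log2 difference of -0.12 (interval -0.48 to 0.24; adjusted p = 0.773).

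Of 15 tested mineralocorticoid receptor targets, 2 rose and 4 fell (0.698% and 1.27% of all tested genes), with a median of -0.60. Those that fell (Fkbp5, Zbtb16, Sgk1 and Tsc22d3) are all also in the glucocorticoid list. The 2 that rose were sodium channel subunits. Scnn1b, the beta subunit (chromosome 7, 121865038 to 121918514), was at 21.8 and 28.2 in the intact and 197, 188, 206 and 83.7 in the castrated prostates, with castrated sample 4 the low one. Its log2 difference was 2.66 (SE 0.38; limma adjusted p = 0.0269). Scnn1g, the gamma subunit (chromosome 7, 121734479 to 121768475), named after its values were seen, was at 2.73 and 7.88 in the intact and 23.7, 44.5, 24.6 and 28.0 in the castrated prostates. Its log2 difference was 2.51 (SE 0.42; adjusted p = 0.0429), or 1.82 without intact sample 1 and 3.20 without intact sample 2. With 1 sample left out, Scnn1b and Scnn1g each kept the call in 1 of 6 fits, without castrated sample 4. The alpha subunit gene Scnn1a did not pass, with a log2 difference of -0.07 (interval -0.74 to 0.60).

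Of 11 tested progesterone receptor targets, 0 were called higher and 3 lower (0.698% and 1.27% of all tested genes). The 3 were Fkbp5, Cited2 and Zbtb16, the last with the limit of the filter given above. Cited2, a transcriptional co-regulator (chromosome 10, 17723218 to 17725674), was at 99.3 and 83.3 in the intact and 46.1, 45.7, 50.7 and 37.5 in the castrated prostates. It fell by 1.02 (SE 0.14; limma adjusted p = 0.0271), and its call was kept in 1 of 6 fits with a sample left out. Of 17 tested oestrogen receptor targets other than Pgr, limma called 0 (0.698% of all tested genes higher and 1.27% lower). At an unadjusted p under 0.05 in limma 0 were higher and 4 lower (7.84% and 8.06% of all tested genes). In edgeR 0 of the 17 were called (0.389% of all tested genes higher and 1.07% lower). DESeq2 called 3 lower (4.54% of all tested genes). The median of the 17 was -0.42. The uterine growth factor Wnt4 had a log2 difference of -1.48 (adjusted p = 0.123) and the scaffold gene Pdzk1 one of -2.29 (adjusted p = 0.104). Greb1 and Tff1, oestrogen-induced genes in breast cells, stayed below the filter with 41 and 9 reads in the intact and 156 and 168 in the castrated samples. Of the reads of Tff1, most came from castrated sample 2, at 2.61 rescaled CPM against at most 0.322 elsewhere.

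Enzymes that set which steroid reaches a receptor were tested in 8 cases, with 0 called by limma and 0 by edgeR. Over all tested genes limma called 0.698% higher and 1.27% lower, and edgeR 0.389% and 1.07%. At an unadjusted p under 0.05 in limma 1 was higher and 3 lower (7.84% and 8.06% of all tested genes). In DESeq2 1 was higher and 1 lower (4.76% and 4.54% of all tested genes). Hsd11b2, which inactivates glucocorticoids and so leaves the mineralocorticoid receptor to aldosterone (chromosome 8, 105518755 to 105523988), was at 77.8 and 100.9 in the intact and 314, 392, 365 and 167 in the castrated prostates. The groups did not overlap, and its log2 difference was 1.73 (SE 0.35; limma adjusted p = 0.0672). Without castrated sample 4 it was 2.00, with an adjusted p of 0.00295. Hsd11b1, which works in the opposite direction, was at 14.9 ± 1.91 and 15.1 ± 2.08, with a log2 difference of 0.01 (interval -0.39 to 0.42). H6pd, which supplies the cofactor of that enzyme, had a log2 difference of -0.49 (adjusted p = 0.201). Sult1e1, the oestrogen sulfotransferase, was at 1.798 and 7.33 in intact samples and at most 0.456 in castrated samples, with a log2 difference of -2.64 (adjusted p = 0.0648). It too passed the filter through the intact samples alone, which partly fixes that difference. Cyp19a1, the aromatase gene, had 0 reads in all 6 samples, which allows up to 0.0507 to 0.0687 CPM depending on the sample.

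Of 24 coregulators tested, limma, edgeR and DESeq2 called 0, and the median was 0.06. Over all tested genes limma called 0.698% higher and 1.27% lower, edgeR 0.389% and 1.07%, and DESeq2 4.76% and 4.54%. At such shares 0 calls in limma or edgeR does not set a list of this size apart. At an unadjusted p under 0.05 in limma 0 were higher and 1 lower (7.84% and 8.06% of all tested genes). The exception in limma was Ncoa4, at a log2 difference of -0.43 (adjusted p = 0.226). Pelp1 and Nrip1 had differences of -0.20 and -0.66 (adjusted p = 0.365 and 0.592). Of 16 chaperones, 0 were called higher and 1 lower, Fkbp5 (0.698% and 1.27% of all tested genes), with a median of -0.02. Bag1, a co-chaperone, had a difference of -0.39 (adjusted p = 0.0873) and Stip1, which links the Hsp70 and Hsp90 chaperones, one of 0.21 (adjusted p = 0.360). Of 7 related orphan and membrane receptors tested, limma, edgeR and DESeq2 called 0, beside the shares of all tested genes given above. An unadjusted p under 0.05 in limma was reached by 0 of the 7. Among them were the oestrogen-related receptor gene Esrrg (0.65, adjusted p = 0.325) and the progesterone-binding membrane protein genes Pgrmc1 (0.29, adjusted p = 0.385) and Paqr7 (0.16, adjusted p = 0.700).

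These are bulk samples, in which more receptor RNA per cell and more cells of a type that expresses the receptor cannot be told apart. Marker sums differed between the groups for some cell types, and for several of them 1 gene decided it. The 12 smooth muscle genes summed to 357 and 339 rescaled CPM in intact samples and to between 421 and 626 in castrated samples, with no overlap. The 7 neutrophil genes summed to 83.0 and 34.6 and to between 215 and 365. Both separations held with any 1 gene of the list left out, a check added after the values were seen. The 7 adipocyte genes summed to 15.5 and 25.9 and to between 40.3 and 103, but through Pparg alone: without it the sums were 6.72 and 12.0 against 43.4, 20.7, 83.1 and 7.18, and the other 6 genes each overlapped between the groups. Basal epithelial genes moved the other way, from 4729 and 4960 to between 1270 and 4254, as did B and plasma cell genes, from 762 and 828.7 to between 360 and 739. These groups overlapped without Krt15 (2633 and 2577 against 1008 to 2673) and without Sdc1 (128 and 202 against 98.9 to 213). Fibroblast, endothelial, luminal, neuroendocrine, macrophage and T and NK cell sums overlapped between the groups, though fibroblast sums without Dcn did not (1497 and 1478 against 529.7 to 1405).

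**Figure D5:**
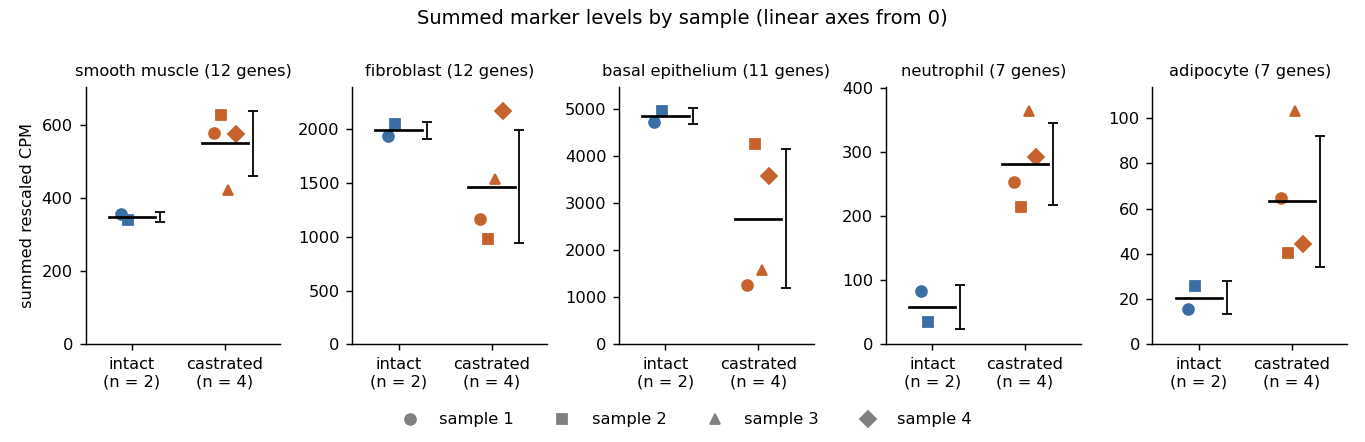
Panels plot the summed rescaled CPM of 5 marker lists by sample on linear axes from 0, with group means and 1 SD. Smooth muscle, neutrophil and adipocyte sums are higher in each castrated sample than in both intact samples, the adipocyte sums through Pparg alone. Basal sums are lower, through Krt15, and fibroblast sums overlap.

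Each receptor was also set against the smooth muscle sum of the same sample, a ratio chosen after the values were seen. Nr3c1 was 9.76% and 9.84% of that sum in intact samples and between 8.38% and 14.8% in castrated samples. Its groups thus overlapped, as did those of Nr3c2, Esr1 and Esr2. The smooth muscle sum was itself higher in each castrated sample, so dividing by it lowers the rise of any receptor. These overlaps therefore do not show where a receptor's RNA came from. Pgr was 0.00654% and 0.0412% of the sum in intact samples and between 0.188% and 0.886% in castrated samples, with no overlap. For Pgr this was bound to follow and decides nothing. Pgr was at most 0.140 rescaled CPM in intact and at least 1.08 in castrated samples, while the sum ranged only from 339 to 626. Its intact values also rest on 1 and 8 reads, and it passed the filter through the castrated samples alone. The part of each cell type in the receptor differences was not tested. Castrated samples 2 and 4, the 2 highest for Esr1 and the 2 lowest for Nr3c2 and Esr2, also had the highest basal sums among castrated samples. These were 4254 and 3569, against 1270 and 1580 in castrated samples 1 and 3. For Esr1 the match did not extend to the intact samples, which had higher basal sums (4729 and 4960) and Esr1 at 22.9 and 34.3. Nr3c2 and Esr2 were lower in both intact samples than in each castrated one. The basal list is 1 of 12 marker lists, and the split was not particular to it. Among castrated samples, 2 and 4 also had the highest endothelial, macrophage, T and NK cell and B and plasma cell sums. The same held for the seminal vesicle sums, which were near 0. Luminal and adipocyte sums were lowest in castrated samples 2 and 4. Smooth muscle, fibroblast, neuroendocrine and neutrophil sums did not split in this way.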

How the data were processed

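Per sample, the authors deposited a CPM table (reads per 1000000 gene reads). The submitters' processing notes name TopHat2, HTSeq, edgeR and mm10; versions and settings are not given in the sources used here. In each of the 6 samples 100% of entries were multiples of a 1-read step (tolerance 1e-06), so whole read counts were recovered from the deposited CPM. On these counts edgeR 4.0.16 called 203 genes and DESeq2 1.42.0 called 1293, against 274 in limma.

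CPM were rescaled by median-of-ratios size factors (0.981 to 1.05). Genes with at least 1 CPM in at least 2 samples were fitted in limma 3.58.1 (R 4.3.3) on log2(value + 0.5), which understates changes of low genes, with a mean-variance trend, without a block, and Benjamini-Hochberg adjustment over 13898 genes. The steps were tested on simulated counts. Every pair of samples differed by more than sampling noise (lowest chi-square over degrees of freedom, 63.1). A count of 0 allows up to 3 reads.

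The receptors and lists were chosen with earlier results of these data known. The rule names all receptors, the 3 members of each list with the smallest p and the 3 genes most like each receptor. Sts and the symbols Ly6g and Trac were not matched, and Car12 was used for Ca12. Exon lengths and positions are from GENCODE M21 (GRCm38, the assembly of mm10). The floxed gene is not reported here.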

Additional observations from a re-analysis of the deposited data

Results flagged for a closer look

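Among 31 sets of 4 castrated values checked for a sample far from the others, 2 were picked out, and chance picks out about 1 in 20. The lowest castrated value of Scnn1b, 83.7 rescaled CPM in castrated sample 4, lay apart from 188 to 206 in the other 3. The highest castrated value of Stip1, 160 rescaled CPM, lay apart from the other 3 as well. None of the 5 receptors was picked out in this way.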

How the results depend on the processing

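The direction of the 5 receptor differences held in each of 18 alternative fits, which reuse the same samples. The side of the threshold held in all but 12 of 89 values. With array weights Nr3c1, Nr3c2 and Pgr passed (log2 differences 0.69, 0.99 and 2.39). In DESeq2 on the recovered reads Nr3c1, Nr3c2, Esr2 and Pgr passed (0.73, 1.05, 1.48 and 4.73). With a pseudocount of 0.1 Pgr passed (3.64). The number of receptors called was thus 1, 3 and 4 in these fits, and with 1 sample left out from 0 to 4, the 4 without castrated sample 4. With 1 sample left out the differences ranged from 0.66 to 0.78 for Nr3c1, 0.83 to 1.20 for Nr3c2, 0.66 to 1.30 for Esr1, 1.04 to 1.51 for Esr2 and 1.91 to 2.38 for Pgr. The Esr1 to Esr2 ratio ranged from -0.85 to 0.16, changing sign without intact sample 2 (0.14) and castrated sample 1 (0.16) or 3 (0.14), and Paqr7 changed sign without intact sample 1 (-0.043, in a range from -0.043 to 0.36). Called genes overall numbered 274, but 170 with no filter, 954 with array weights, 1293 in DESeq2 and from 1 to 1052 with 1 sample left out. Called genes of the pathway lists numbered 9, but 5 with no filter, 19 with array weights, 24 in DESeq2 and from 1 to 19 with 1 sample left out. The cause of these shifts was not tested. With an intact sample left out, the lone one is assumed to vary like the castrated group. Pgr was not tested under the filter of 5 CPM.

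Replicate numbers 1 and 2 occur in both groups, and deviations of same-numbered samples correlated at 0.0755 and 0.226, which does not establish pairing. With the replicate number as a block 417 genes, 14 pathway genes and 0 receptors were called.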

Other observations

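Akr1c18, which encodes an enzyme that inactivates progesterone, stayed below the filter. It had 1 read over both intact samples and 142 over the castrated ones. Scaled by read totals and size factors this was 62.5 times as many (exact 95% binomial interval 11.03 to 2484, counting error only). It was at 1.38, 0.358, 0.666 and 0.177 rescaled CPM in castrated samples 1 to 4. Hand2, a transcription factor of stromal cells, had 202 reads in the intact samples, nearly all from intact sample 2 (3.51 rescaled CPM against 0.0233 in intact sample 1), and 12 in the castrated samples.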
